A study of Mus musculus with 24 samples.

Results

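Vcan, Fn1, Thbs1, Hp, F13a1, Chil3, Ly6c2, Plac8 and S100a4 are 9 genes that mouse monocytes and their early descendants are known to transcribe. They were taken by symbol from the deposited annotation table of 55487 genes, and all 9 passed the filter on low counts that left 14535 genes. Vcan was selected on its KO against WT difference on day 7, which was among the largest of all genes, so the day 7 genotype values of the 9 genes are described here without a test. The libraries are poly(A) RNA-seq of bone-marrow-derived dendritic cells (BMDC), made by culturing mouse marrow with the cytokine GM-CSF.

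All mice carried homozygous floxed ARPC4 alleles (genotype ARPC4 Flox/Flox), controls included. The WT mice had no Cre transgene (CD11c-Cre -/-), and the KO mice had 1 copy (CD11c-Cre +/-), a recombinase made where the CD11c promoter is active. Arpc4 encodes a subunit of the Arp2/3 complex, which starts branched actin filaments. Marrow came from male and female mice aged 8 to 10 weeks, cells were replated on days 4 and 7, and only cells in suspension were taken, on days 7, 8, 9 and 10. Each of the 8 groups held 3 mice, numbered 63, 65 and 66 for WT and 64, 67 and 68 for KO, which gave 24 libraries. Since Cre acts in CD11c+ cells, cells that had not yet switched on CD11c can keep the gene, and the share of such cells was not measured here. The question set by the design is how BMDC differentiation compares between control and KO cells over these 4 days.

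Classical monocytes leave the marrow with high surface Ly6C and can become macrophages or dendritic cells in tissue and in GM-CSF culture, losing part of their monocyte transcripts on the way. The 9 genes fall into 3 kinds by product. Vcan encodes versican, a hyaluronan-binding proteoglycan, Fn1 encodes fibronectin, and Thbs1 encodes thrombospondin 1, all secreted into the extracellular matrix. Hp encodes haptoglobin, which binds free hemoglobin, F13a1 encodes the A subunit of coagulation factor XIII, a transglutaminase that crosslinks fibrin, and Chil3 encodes Ym1, a secreted chitinase-like lectin. Ly6c2 encodes the Ly6C antigen held in the membrane by a lipid anchor, Plac8 a small cysteine-rich protein, and S100a4 a calcium-binding protein.

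Promoter sequences, 250 bases before to 50 bases after the transcript start, were found in the RefSeq table (GRCm38.p6) for 6 of the 9 genes, namely Vcan, F13a1, Chil3, Ly6c2, Plac8 and S100a4. Both strands were searched for 5 motifs of factors active in myeloid cells or of the core promoter. These were C/EBP (TTGCNNAA), PU.1 (GAGGAAGT), AP-1 (TGANTCA), an interferon response element (GAAA, 2 bases of any kind, GAAA) and the TATA box (TATAAA), and no match of one motif overlapped a match of another. The 4 promoters printed here belong to the pair that moved most closely together between libraries, Ly6c2 and Plac8, and to the pair whose day 7 levels were the lowest of the 4 days, Vcan and S100a4. Capitals mark motif matches. Positions are Vcan chr13:89742463-89742762, reverse strand; Ly6c2 chr15:75111922-75112221, reverse strand; Plac8 chr5:100572156-100572455, reverse strand; S100a4 chr3:90603520-90603819, forward strand.
Vcan: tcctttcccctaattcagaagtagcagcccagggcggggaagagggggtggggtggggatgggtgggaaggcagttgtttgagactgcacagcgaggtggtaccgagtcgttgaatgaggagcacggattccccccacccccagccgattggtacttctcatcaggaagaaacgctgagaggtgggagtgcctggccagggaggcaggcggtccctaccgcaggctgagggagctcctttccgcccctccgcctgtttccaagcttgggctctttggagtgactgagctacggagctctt
S100a4: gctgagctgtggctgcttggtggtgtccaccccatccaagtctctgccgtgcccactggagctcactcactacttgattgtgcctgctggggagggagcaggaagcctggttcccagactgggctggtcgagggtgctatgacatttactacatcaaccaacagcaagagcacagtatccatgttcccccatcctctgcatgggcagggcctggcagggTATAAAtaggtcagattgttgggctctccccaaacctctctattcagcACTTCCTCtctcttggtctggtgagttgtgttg
Ly6c2: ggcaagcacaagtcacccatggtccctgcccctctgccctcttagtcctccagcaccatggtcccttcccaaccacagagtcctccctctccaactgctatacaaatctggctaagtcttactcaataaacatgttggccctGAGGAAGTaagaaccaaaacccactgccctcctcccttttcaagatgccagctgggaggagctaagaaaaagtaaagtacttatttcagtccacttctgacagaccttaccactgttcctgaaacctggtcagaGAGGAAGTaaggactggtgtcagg
Plac8: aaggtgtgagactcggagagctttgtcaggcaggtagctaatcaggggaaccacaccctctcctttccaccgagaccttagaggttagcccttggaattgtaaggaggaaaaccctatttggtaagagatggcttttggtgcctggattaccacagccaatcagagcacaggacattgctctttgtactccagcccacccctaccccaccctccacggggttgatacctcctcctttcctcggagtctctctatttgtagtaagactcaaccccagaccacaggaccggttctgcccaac

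The Ly6c2 window held PU.1 letters at 2 places, bases -108 to -101 and 27 to 34 counted from the start. The S100a4 window held the same letters on the other strand at bases 18 to 25 and a TATA box at bases -31 to -26. The Chil3 window held TATAAA at bases -3 to 3, and the windows of Vcan, Plac8 and F13a1 held none of the 5. Among 32817 promoters of the same length, 3.2% held the PU.1 letters, 13.6% the TATA box, 10.8% the C/EBP letters, 7.81% the AP-1 letters and 3.43% the interferon response letters. These matches are descriptions of letters, and binding was not measured.

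Libraries held 19952047 to 31049798 counts. Arpc4 ran from 188 to 270.3 CPM (counts scaled to a common library size with TMM factors) in WT, and the KO libraries ran from 155 to 231 CPM, and on each day all 3 KO libraries were below all 3 WT libraries. Which exons lie between the loxP sites is not given in the sources used here, so these reads need not come from the deleted stretch. Ddx3y, a Y-linked gene, was at 56.5 to 83.9 CPM in 1 library of each group and at 0.136 CPM or less in the others. In WT that library was mouse 63 on all 4 days, whereas in KO it was labelled 64 on days 7 and 9, 68 on day 8 and 67 on day 10. The KO mouse numbers therefore go against Ddx3y on at least some days, and KO libraries are named here by their labels. The dendritic cell genes Itgax and H2-Ab1 averaged 540 to 976 and 279 to 1326 TPM (transcript abundance corrected for gene length) over the groups. Flt3, Zbtb46 and Cd209a averaged under 1 TPM in WT on day 7, and the macrophage markers Cd163 and Timd4 were under 1 TPM in every group. Cd163 and Timd4 were the only 2 of 13 macrophage genes that low, and the macrophage gene Gpnmb averaged 6806 TPM over all libraries. The 13 macrophage genes summed to 20228 to 22849 TPM in WT on day 7, and 15 dendritic cell genes to 2625 to 3521 TPM. The labels name 2 library kits without saying which library used which, so kit and group cannot be told apart.

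Per length, the 9 genes had levels in single libraries that ran from 1.17 TPM for Vcan to 4728 TPM for Chil3. Chil3 was at 1288 to 4728 TPM and Thbs1 at 628 to 2038 TPM, the highest ranges of the 9. Fn1 was at 68.1 to 585 TPM, Hp at 53.3 to 325 TPM, Ly6c2 at 56.1 to 276 TPM, and Plac8 at 24.5 to 167 TPM. F13a1 ran from 16.9 to 114 TPM, S100a4 from 7.10 to 88.8 TPM and Vcan from 1.17 to 61.2 TPM. The values per library that follow are CPM, which compare 1 gene across libraries. In bulk RNA, fewer cells that transcribe a gene and less transcript per cell cannot be told apart.

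**Figure D1:**
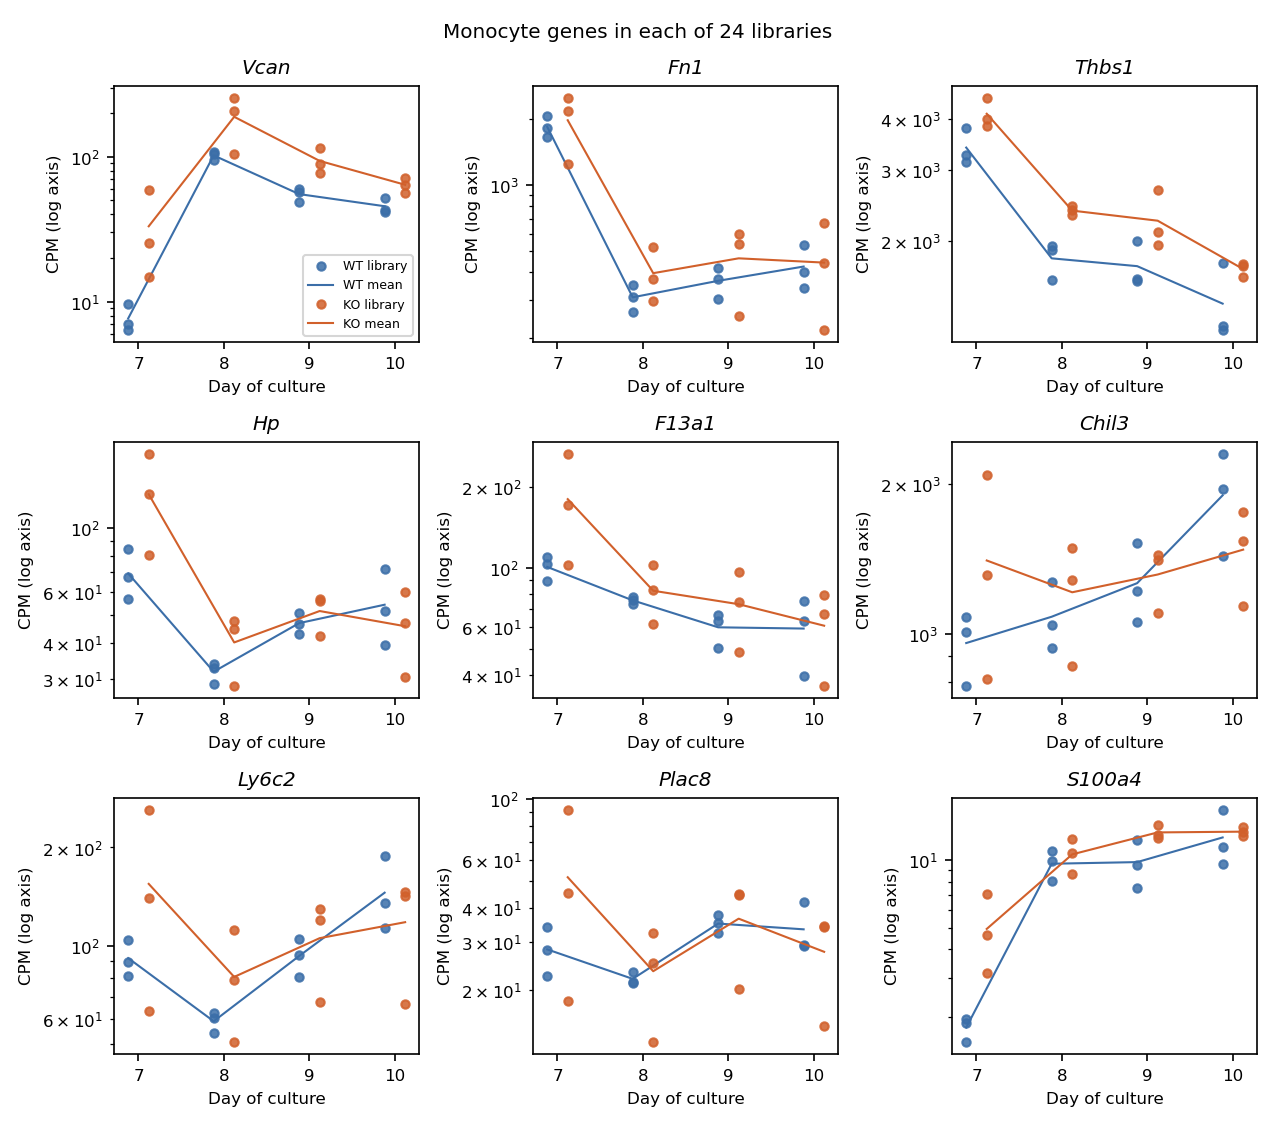
CPM of the 9 genes on a log axis by culture day, 1 panel a gene, with 1 point per library (3 WT and 3 KO mice a day) and a line through the group means. Vcan and S100a4 were lowest on day 7, Fn1 and Thbs1 were highest on day 7, and the KO points of Ly6c2 and Plac8 spread more widely than the WT points.

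Vcan was low in WT cells on day 7 and highest on day 8, and its KO libraries were above the WT libraries on days 7, 9 and 10. The gene (ENSMUSG00000021614.16) lies at chr13:89655312-89742509 on the reverse strand of GRCm38. In WT it measured 9.67, 6.32 and 6.97 CPM on day 7 (mice 63, 65 and 66), 95.4, 107 and 104 CPM on day 8, 57.3, 48.7 and 59.5 CPM on day 9, and 42.8, 41.8 and 51.9 CPM on day 10. In KO it measured 14.8, 59.0 and 25.4 CPM on day 7 (labelled 64, 67 and 68), 206, 256 and 104 CPM on day 8, 77.2, 115 and 88.7 CPM on day 9, and 71.8, 56.5 and 63.6 CPM on day 10. The WT libraries of a day lay close together, while the day 7 KO libraries differed 3.97-fold from lowest to highest, and the day 8 KO library labelled 68 lay inside the WT range. Ordered by group mean, Vcan stood at 188 ± 77.3 CPM (SD, n = 3) in KO on day 8, 102 ± 6.02 in WT on day 8, 93.5 ± 19.1 in KO on day 9, 64.0 ± 7.65 in KO on day 10, 55.2 ± 5.70 in WT on day 9, 45.5 ± 5.56 in WT on day 10, 33.1 ± 23 in KO on day 7 and 7.66 ± 1.78 in WT on day 7. Neighbours in that order overlapped, except KO on day 9 against KO on day 10 and KO on day 7 against WT on day 7. As a description, the fitted mean was 13.3-fold higher on day 8 than on day 7 in WT and 5.71-fold higher in KO, and 5.92-fold and 1.94-fold higher on day 10 than on day 7. The KO folds lean on the day 7 library labelled 67, at 59.0 CPM against 14.8 and 25.4 CPM in the others. From day 8 to day 9 the log2 change was -0.89 (SE 0.333, edgeR quasi-likelihood test with Benjamini-Hochberg adjusted p = 0.119) in WT and -1.01 (SE 0.329, adjusted p = 0.094) in KO. Neither change passed the threshold of 0.05 over all genes, although no WT library overlapped between these days. With only the 6 WT libraries of days 8 and 9 in the fit, the WT value was -0.88 with an adjusted p of 5.86e-05. Without the filter on low counts, the adjusted p was 0.0316 in WT and 0.0151 in KO.

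Fn1 and Thbs1, both matrix glycoproteins bound by integrins, went the other way, with their highest levels on day 7 in both genotypes. Fn1 (ENSMUSG00000026193.15, chr1:71585520-71653200, reverse strand) measured 2049, 1641 and 1817 CPM in WT on day 7, 350.5, 307 and 265 CPM on day 8, 420.1, 303 and 373 CPM on day 9, and 533, 337 and 403 CPM on day 10. Its KO values were 2492, 1237 and 2171 CPM on day 7, 518, 295 and 374 CPM on day 8, 540.3, 253 and 594 CPM on day 9, and 217, 441 and 669 CPM on day 10. No day 8, 9 or 10 library of either genotype reached any day 7 library of Fn1. Fn1 fell 5.97-fold from day 7 to day 8 in WT (log2 -2.58, SE 0.360, edgeR adjusted p = 9.09e-06) and 4.97-fold in KO (log2 -2.31, SE 0.356, adjusted p = 3.01e-05). On day 10 it remained 4.33-fold below day 7 in WT (adjusted p = 0.000104) and 4.45-fold below in KO (edgeR adjusted p = 0.000102). Thbs1 (ENSMUSG00000040152.8, chr2:118111876-118127133, forward strand) measured 3799, 3259 and 3139 CPM in WT on day 7, 1939, 1897 and 1597 CPM on day 8, 2002, 1589.8 and 1606 CPM on day 9, and 1767, 1202 and 1231 CPM on day 10. The KO libraries measured 4515, 4009.6 and 3836 CPM on day 7, 2311, 2379 and 2436 CPM on day 8, 2667, 2103 and 1959 CPM on day 9, and 1624, 1735 and 1753 CPM on day 10. Thbs1 showed the narrowest spread of the 9 genes in KO, with at most 1.36-fold between the lowest and highest library of a day. It fell 1.88-fold from day 7 to day 8 in WT (log2 -0.91, SE 0.144, edgeR adjusted p = 3.82e-05) and 1.73-fold in KO (log2 -0.79, SE 0.144, adjusted p = 0.000163). By day 10 it was 2.43-fold below day 7 in WT and 2.42-fold below in KO (edgeR adjusted p = 1.83e-06 and 1.91e-06).

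Hp fell from day 7 to day 8 in both genotypes, and by day 10 only its KO fall passed the threshold. Hp (ENSMUSG00000031722.10, chr8:109575128-109579172, reverse strand) measured 67.3, 56.8 and 84.2 CPM in WT on day 7, 33.8, 28.8 and 32.6 CPM on day 8, 50.9, 42.9 and 46.5 CPM on day 9, and 51.4, 39.2 and 71.8 CPM on day 10. In KO it measured 80.5, 180.4 and 131 CPM on day 7, 44.6, 47.4 and 28.2 CPM on day 8, 42.1, 56.5 and 55.8 CPM on day 9, and 46.6, 30.3 and 59.8 CPM on day 10. The day 7 libraries of each genotype were all above its day 8 libraries, and the WT libraries of day 10 overlapped those of day 7. Each WT mouse was nevertheless lower on day 10 than on day 7, a pairing that the fit of all libraries did not use. The fall by day 8 was 2.19-fold in WT (log2 -1.13, SE 0.276, edgeR adjusted p = 0.00244) and 3.25-fold in KO (log2 -1.70, SE 0.276, adjusted p = 5.32e-05). The day 10 level was 2.86-fold below day 7 in KO (log2 -1.52, SE 0.274, edgeR adjusted p = 0.000253), and the WT difference was -0.36 on the log2 scale (SE 0.270, adjusted p = 0.320). Whether the genotypes differed in that change was not tested, because it uses the day 7 genotype values.

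F13a1 fell in KO from day 7 to day 8 and to day 10, and its WT changes did not pass the threshold. F13a1 (ENSMUSG00000039109.16, chr13:36867178-37050244, reverse strand) measured 109, 89.1 and 104 CPM in WT on day 7, 77.6, 75.8 and 73.5 CPM on day 8, 63.3, 50.2 and 66.7 CPM on day 9, and 75.1, 39.5 and 63.6 CPM on day 10. Its KO values were 102, 265 and 171 CPM on day 7, 82.5, 102 and 61.8 CPM on day 8, 48.4, 96.7 and 74.4 CPM on day 9, and 79.2, 36.2 and 67.2 CPM on day 10. In each genotype every library of day 8 and of day 10 was below every day 7 library. In KO it fell 2.19-fold by day 8 (log2 -1.13, SE 0.313, edgeR adjusted p = 0.00656) and 2.95-fold by day 10 (log2 -1.56, SE 0.317, adjusted p = 0.000713). The day 8 call in KO was lost without the mouse labelled 68 and with limma on log2(TPM + 1). The WT changes were -0.41 by day 8 (SE 0.312, edgeR adjusted p = 0.301) and -0.76 by day 10 (SE 0.314, adjusted p = 0.0638) on the log2 scale. With only the compared WT libraries in the fit these had adjusted p = 0.000821 and 0.0112. Whether the fall of F13a1 differed between the genotypes was not tested, because it uses the day 7 genotype values.

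Chil3 rose in WT and showed no change past the threshold in KO. Chil3 (ENSMUSG00000040809.10, chr3:106147554-106167564, reverse strand) measured 1080.4, 783 and 1008 CPM in WT on day 7, 1267, 935 and 1041 CPM on day 8, 1518, 1053 and 1215 CPM on day 9, and 2296, 1434 and 1951 CPM on day 10. The KO libraries measured 809, 2084 and 1312 CPM on day 7, 1283, 1486 and 862 CPM on day 8, 1102, 1404 and 1435 CPM on day 9, and 1536, 1135 and 1750.0 CPM on day 10. Every WT library of day 10 was above every WT library of day 7, while the KO libraries of these days overlapped. The WT rise from day 7 to day 10 was 1.98-fold (log2 0.98, SE 0.272, edgeR adjusted p = 0.00742), and the KO difference was 0.07 on the log2 scale (SE 0.269, adjusted p = 0.864). The KO value ran from -0.238 without the mouse labelled 64 to 0.622 without the mouse labelled 67, so it rests on single libraries, and whether the genotypes differed in this change was not tested. The WT call was lost without mouse 63 (adjusted p = 0.0582) and without mouse 66 (adjusted p = 0.066). Its near copy Chil4, with 94.7% identity over 1535 aligned transcript bases, was at 0 to 0.28 TPM in all libraries; how reads that fit both copies were counted is not given in the sources used here.

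Ly6c2 and Plac8 had their lowest WT mean on day 8, without a WT change past the threshold. In KO both had their highest mean on day 7, which rested on the library labelled 67. Ly6c2 (ENSMUSG00000022584.14, chr15:75108158-75111970, reverse strand) measured 89.6, 81.2 and 105 CPM in WT on day 7, 54.1, 60.3 and 62.3 CPM on day 8, 93.8, 80.5 and 105 CPM on day 9, and 135, 113 and 188 CPM on day 10. In KO it measured 63.1, 261 and 140.3 CPM on day 7, 78.6, 112 and 50.7 CPM on day 8, 67.6, 129 and 120.0 CPM on day 9, and 142, 66.5 and 146 CPM on day 10. The 3 KO libraries of day 7 differed 4.14-fold, and the lowest of them was below every WT library of that day. The change from day 7 to day 8 was -0.64 in WT (SE 0.383, edgeR adjusted p = 0.186) and -0.94 in KO (SE 0.382, adjusted p = 0.0531) on the log2 scale, and that from day 7 to day 10 was 0.66 in WT (adjusted p = 0.181) and -0.39 in KO (adjusted p = 0.455). The direction of the KO value by day 10 was not stable, since it turned positive without the mouse labelled 67 and with limma on log2(TPM + 1), with a range of -0.917 to 0.494 over the alternatives. With only the compared WT libraries in the fit, the WT changes had adjusted p = 0.000159 by day 8 and 0.00902 by day 10. Plac8 (ENSMUSG00000029322.12, chr5:100553725-100572245, reverse strand) measured 28.1, 22.6 and 33.9 CPM in WT on day 7, 23.4, 21.2 and 21.3 CPM on day 8, 35.2, 32.2 and 37.7 CPM on day 9, and 29.3, 29.0 and 41.9 CPM on day 10. Its KO values were 18.2, 91.7 and 45.5 CPM on day 7, 25.2, 32.2 and 12.8 CPM on day 8, 20.1, 44.9 and 44.6 CPM on day 9, and 33.9, 14.7 and 34.2 CPM on day 10. Plac8 had the widest KO spread of the 9 genes, 5.03-fold between the libraries of day 7 against 1.5-fold in WT. Its KO mean fell 2.20-fold from day 7 to day 8 (log2 -1.14, SE 0.430, edgeR adjusted p = 0.0387), although the libraries of both days overlapped. That call was lost in 8 of 16 alternatives, among them the fits without mouse 63, 65, 66, 67 or 68 and the fit with the mouse as a replicate block. From day 7 to day 10 the KO value of Plac8 was -0.905 on the log2 scale (edgeR adjusted p = 0.103), and it was 0.0881 without the mouse labelled 67. Ly6c1, a near copy of Ly6c2 with 97.6% identity over 822 aligned transcript bases, was at 0 to 0.32 TPM.

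S100a4 rose from a low day 7 level in both genotypes and stayed high. S100a4 (ENSMUSG00000001020.8, chr3:90603771-90606045, forward strand) measured 1.89, 1.54 and 1.97 CPM in WT on day 7, 9.85, 8.04 and 11 CPM on day 8, 9.50, 7.54 and 12.3 CPM on day 9, and 11.4, 9.64 and 16.7 CPM on day 10. The KO libraries measured 3.15, 7.03 and 4.63 CPM on day 7, 10.8, 12.4 and 8.62 CPM on day 8, 12.5, 12.9 and 14.3 CPM on day 9, and 13.3, 14 and 12.8 CPM on day 10. Every library of days 8, 9 and 10 was above every day 7 library of its genotype. By day 8 it rose 5.32-fold in WT (log2 2.41, SE 0.265, edgeR adjusted p = 4.93e-07) and 2.15-fold in KO (log2 1.11, SE 0.240, adjusted p = 0.000931). By day 10 the rise was 6.97-fold in WT and 2.71-fold in KO (edgeR adjusted p = 2.31e-07 and 0.000113). S100a4 shares 302 of its 584 exon bases with Gm42674 on the same strand, and Gm42674 had 0 counts in all libraries. How reads in the shared bases were counted is not given in the sources used here, so the level of S100a4 is uncertain.

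Counted together, 3 of the 8 tested genes fell and 1 rose from day 7 to day 8 in WT, where 22% of all genes tested fell and 21.5% rose (edgeR, adjusted p under 0.05). The members that fell were Fn1, Thbs1 and Hp, and S100a4 rose. In KO 5 of 8 fell, namely the same 3 with F13a1 and Plac8, and S100a4 rose, against 20.9% of all genes that fell and 21.1% that rose. The median log2 change of the 8 was -0.53 in WT and -1.04 in KO, and the median of all genes was -0.00379 and 0.0018. From day 7 to day 10, Fn1 and Thbs1 fell and Chil3 and S100a4 rose in WT, against 18.1% and 18.9% of all genes. In KO Fn1, Thbs1, Hp and F13a1 fell and S100a4 rose over the same days, against 17.1% and 19.7% of all genes. With only the 6 compared WT libraries in the fit, 7 of 8 genes were called between days 7 and 8, with F13a1, Ly6c2 and Plac8 lower in addition, and the same fit called 52.1% of all genes.

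**Figure D2:**
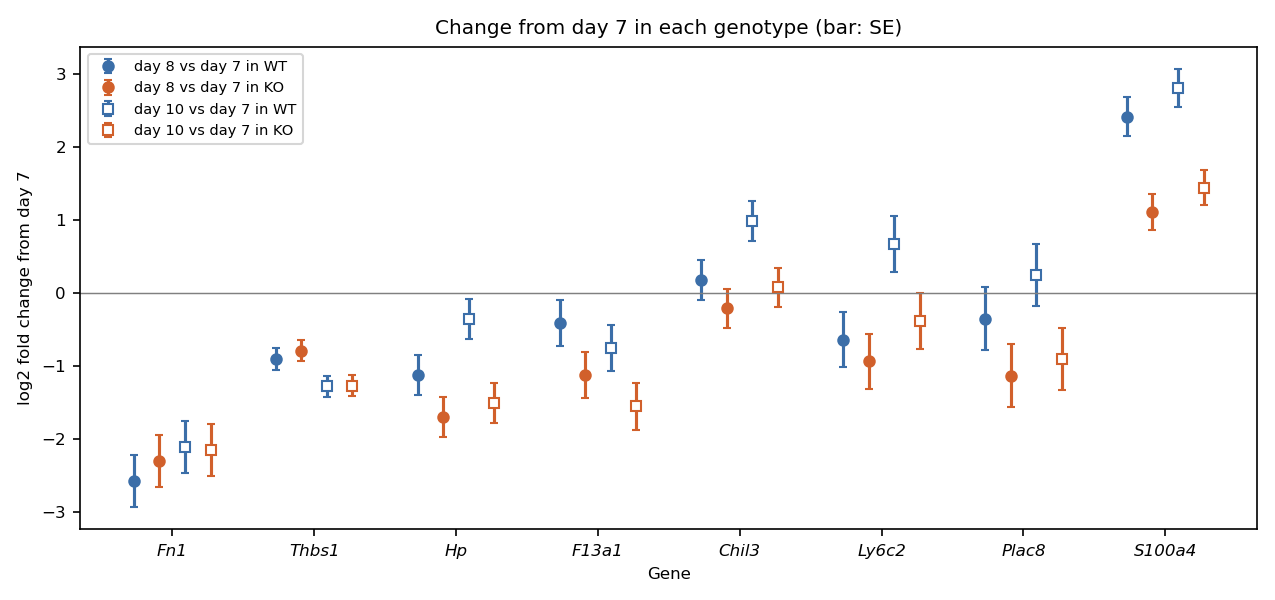
Log2 fold change from day 7 to day 8 and from day 7 to day 10 for the 8 genes tested, WT in blue and KO in orange, with bars of 1 SE from the edgeR fit of 3 mice a group. Fn1 and Thbs1 lay below 0 and S100a4 above 0 in every pair, and Chil3 and Ly6c2 lay above 0 on day 10 in WT.

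After day 8 no change of the 9 genes between successive days passed the threshold in the unblocked fit of all libraries, in which the mice, repeated across days, were treated as independent. From day 8 to day 9, 0 of 9 passed in WT and 0 of 9 in KO by edgeR, DESeq2 or limma, against 5.4% and 2.33% of all genes by edgeR, 9.12% and 6.18% by DESeq2 and 3.19% and 1.4% by limma. In that step 1 gene, Vcan, had an unadjusted p under 0.05 in each genotype, against 21.8% and 18.7% of all genes. From day 9 to day 10, 0 of 9 passed in either genotype by the same 3 tools, against 3.6% and 0.0963% of all genes by edgeR, 5.66% and 1.42% by DESeq2 and 2.47% and 0.0626% by limma. The unadjusted p was under 0.05 for Thbs1 and Chil3 in WT (log2 -0.31 and 0.59) and for Thbs1 in KO (log2 -0.40), against 17.7% and 12% of all genes. With only the compared WT libraries in the fit, 5 of 9 genes passed between days 8 and 9, with Hp, Ly6c2 and Plac8 higher and Vcan and F13a1 lower, and the same fit called 14.6% of all genes. The calls for these steps depended on the fit. Without a filter on low counts, Vcan was lower on day 9 than on day 8 in each genotype, 1 of 9 genes, where 2.99% of all genes were called in WT and 2.08% in KO. With a replicate block that joined the KO libraries by Ddx3y, a choice made after the data were seen, 4 of 9 genes were called from day 8 to day 9 in WT and 2 of 9 in KO, against 12.4% and 8.97% of all genes. From day 9 to day 10 that fit called 3 of 9 in WT and 1 of 9 in KO, against 8.04% and 1.78% of all genes.

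Between the genotypes on day 7, all 9 group means were higher in KO, given here as a description because that contrast chose Vcan. The fitted difference was 4.30-fold for Vcan, 2.73-fold for S100a4, 1.88-fold for Hp, 1.84-fold for Plac8, 1.78-fold for F13a1, 1.69-fold for Ly6c2, 1.46-fold for Chil3, 1.21-fold for Thbs1 and 1.07-fold for Fn1. The KO libraries were all above the WT libraries for Vcan, Thbs1 and S100a4, 3 of 9 genes, where 11.9% of all genes showed this. The KO library labelled 67 carried the highest value of 7 of the 9 genes that day, so the fitted differences of these 7 lean on it. Plac8, for example, was at 91.7 CPM there and at 18.2 and 45.5 CPM in the other KO libraries. For Ly6c2, Plac8, F13a1, Chil3 and Hp the KO library labelled 64 was within or below the WT range while the other KO libraries were above it. The summed level of 17 neutrophil and progenitor granule genes moved with these values, at 10083, 25256 and 14101 TPM in the KO libraries labelled 64, 67 and 68, and 7544 to 13487 TPM in WT. S100a9 alone made up 45.9% of the mean sum of that list over all libraries. The summed level of 15 dendritic cell genes was 3297 to 4576 TPM in KO and 2625 to 3521 TPM in WT on day 7, and none of the granule genes was at 0. Their part in the day 7 differences was not tested.

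On days 8, 9 and 10, 0 of 9 genes differed between the genotypes past the threshold by edgeR, DESeq2 or limma, where 0.00688%, 0.00688% and 0.0138% of all genes did by edgeR, 0.117%, 0.674% and 0.296% by DESeq2 and 0.00695%, 0.0139% and 0.0417% by limma. The edgeR unadjusted p was under 0.05 for 2 of 9 on day 8 and 2 of 9 on day 9, in each case Vcan and Thbs1, and for 0 of 9 on day 10, against 5.91%, 8.15% and 7.3% of all genes. Vcan was 1.85-fold higher in KO on day 8 (log2 0.89, SE 0.328, 95% interval 0.20 to 1.57, adjusted p = 0.713), 1.70-fold higher on day 9 (log2 0.76, SE 0.332, adjusted p = 0.545) and 1.41-fold higher on day 10 (log2 0.49, SE 0.332, adjusted p = 0.805). Every KO library was above every WT library of Vcan on days 9 and 10. The KO difference of Thbs1 was 0.39, 0.37 and 0.28 on the log2 scale on days 8, 9 and 10 (SE 0.143 each, edgeR adjusted p = 0.700, 0.443 and 0.705), with no overlap on day 8. S100a4 was 1.35-fold higher on day 9 without overlap (log2 0.44, SE 0.230, edgeR adjusted p = 0.666). Genes with all KO libraries above all WT libraries were thus 1 of 9 on day 8, 2 of 9 on day 9 and 1 of 9 on day 10, against 4.4%, 7.62% and 5.47% of all genes. The fitted level was higher in KO for 9 of 9 genes on days 8 and 9 and for 5 of 9 on day 10, against 49.2%, 50.1% and 50.8% of all genes, and the 9 genes are not independent of each other. Small differences among these changed sign over the alternatives, namely F13a1 and Plac8 on day 8 (lowest -0.0526 and -0.188), Chil3 and Plac8 on day 9 (lowest -0.0518 and -0.114), and Fn1, F13a1, S100a4, Hp and Plac8 on day 10. On day 10, Hp, Chil3, Ly6c2 and Plac8 were at log2 -0.25, -0.36, -0.30 and -0.27. The adjusted p of these 4 was 0.834 to 0.955, and their 95% intervals reached from -1.16 to 0.61. The difference between the genotypes in the change from day 8 to day 10 passed for 0 of 9 genes by all 3 tools, with 0 of 9 at an unadjusted p under 0.05, against 0% of all genes at the adjusted threshold and 2.24% at the unadjusted one. Without the KO libraries with high Ddx3y the day 8 log2 difference of Vcan was 1.19, and since these were its lowest KO libraries on every day, leaving them out raises the KO mean by construction.

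**Figure D3:**
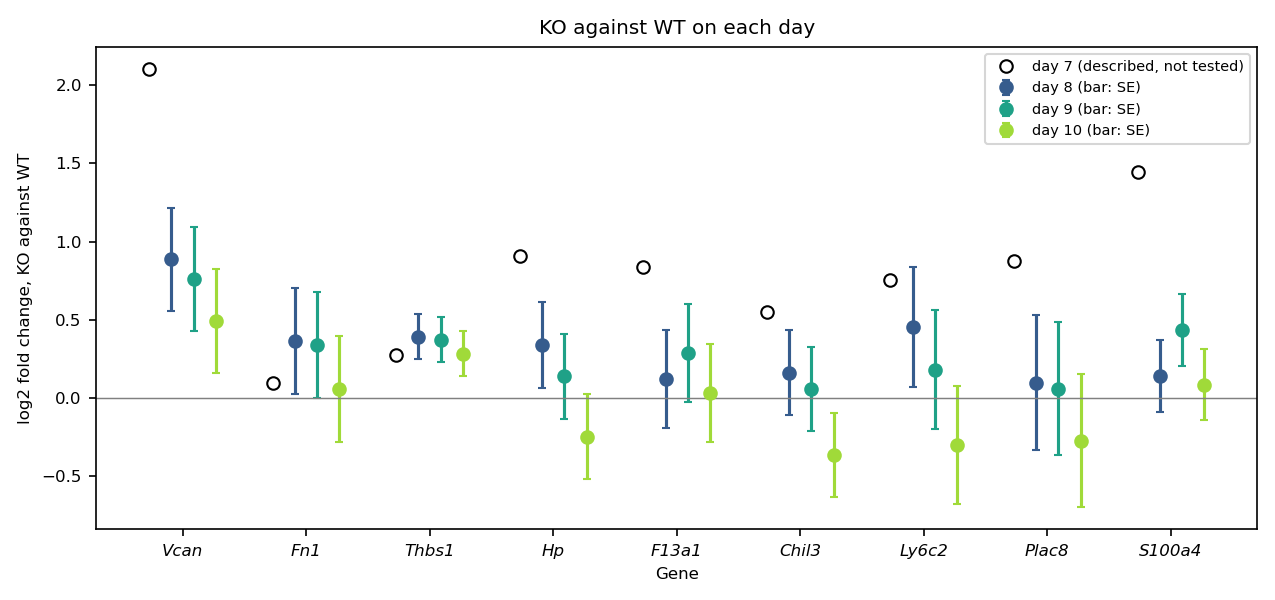
Log2 fold change of KO against WT for the 9 genes on each day, with filled points and bars of 1 SE for days 8 to 10 and open points without a test for day 7. The Vcan points lay at 2.10 on day 7 and 0.49 on day 10, and the points of Chil3, Ly6c2, Plac8 and Hp lay below 0 on day 10.

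Within KO groups, Vcan, Hp, F13a1, Chil3, Ly6c2, Plac8 and S100a4 varied together and Fn1 and Thbs1 did not follow them, whereas within WT groups Fn1 and Thbs1 varied with some of them. With the group means removed, Pearson's r over the 12 libraries of a genotype is given as a description. Ly6c2 with Plac8 had r of 0.994 in KO and 0.833 in WT, and Hp with Ly6c2 had 0.962 and 0.856. Vcan with Ly6c2 had r of 0.89 in KO and 0.548 in WT, and Vcan with Chil3 had 0.933 and 0.4. Fn1 with Vcan had r of -0.524 in KO and 0.347 in WT, and Fn1 with Chil3 had -0.344 and 0.885. Thbs1 with F13a1 had r of -0.619 in KO and 0.621 in WT, and Fn1 with F13a1 had -0.579 and 0.836. Over the pairs with the other 7 genes, the sign differed between the genotypes for 7 of 7 pairs of Fn1 and for 4 of 7 pairs of Thbs1, a difference that was not tested. Thbs1 with Ly6c2, Plac8 and S100a4 had a negative r in both genotypes, at -0.593, -0.643 and -0.415 in KO and -0.149, -0.203 and -0.159 in WT. The libraries share scaling factors and composition, and these values are no test. With the group means removed, Ly6c2 with Plac8 was the highest pair in KO, and Hp with Plac8 was the highest in WT, at r of 0.89. Without removing the group means, over all 24 libraries, Ly6c2 with Plac8 was the highest pair at r of 0.885, followed by Vcan with S100a4 at 0.853 and Fn1 with Thbs1 at 0.827, and Vcan with Fn1 had -0.78.

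In KO, a single library a day was low for most of the 9 genes. The KO library with high Ddx3y was the lowest of its 3 on all 4 days for Vcan, Hp, F13a1, Chil3, Ly6c2 and Plac8, 6 of 9 genes, where 9.67% of all genes were lowest there on all 4 days. S100a4 was lowest there on 3 of 4 days, whereas Thbs1 was highest there on 3 of 4 days. On day 9, for example, Plac8 was at 20.1 CPM in that library and at 44.9 and 44.6 CPM in the other KO libraries. In WT the library with high Ddx3y, mouse 63, was highest on all 4 days for Fn1, Thbs1 and Chil3 and was never lowest for 7 of the 9 genes. WT mouse 65 was the lowest of 3 for all 9 genes on days 9 and 10. For these WT libraries the share of all genes was not counted, so the ranks may not be particular to the 9 genes. The KO range was wider than the WT range on all 4 days for Vcan, Fn1, Hp, F13a1, Ly6c2 and Plac8. The share of all genes with this was not counted, and the median range over all genes was also wider in KO on each day. The median of the 9 within-group ratios of highest to lowest was 1.17 to 1.60 in WT and 1.48 to 2.58 in KO, and the median over all genes was 1.16 to 1.23 in WT and 1.21 to 1.30 in KO.

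Cell type markers moved with these libraries. In the KO libraries with high Ddx3y the dendritic cell sum was the lowest of the 3 on all 4 days, at 3297, 3835, 4810.4 and 6656 TPM on days 7 to 10, against 4108 to 15168 TPM in the other KO libraries. The neutrophil and progenitor granule sum was also lowest there on all 4 days, at 10083, 11677, 15316 and 14072 TPM. The sum of 13 macrophage genes was highest there on all 4 days, at 21573, 16144, 14066 and 14200.1 TPM, against 8392 to 21053 TPM in the other KO libraries. Single genes weigh heavily in these sums. Cd74 made up 57.5% of the mean dendritic cell sum, S100a9 45.9% of the granule sum and Gpnmb 47.3% of the macrophage sum. The sum of the 24 other classical monocyte genes was also highest there on all 4 days, but Lyz2, the lysozyme of phagocytes, made up 88.5% to 96.8% of it in the KO libraries. Without Lyz2, the sum of the remaining 23 genes was lowest there on days 7 and 8, at 4290.1 and 6540.9 TPM against 4617 to 7203 TPM in the other KO libraries, and highest on days 9 and 10, at 6565 and 5803 TPM against 5622 to 6342 TPM. The 11 nonclassical monocyte genes summed to 2414, 1770.4, 2003 and 2019 TPM there, the highest of the 3 on each day, against 1416 to 2316 TPM in the other KO libraries, and Cd9 made up 55.9% of the mean sum. Gene by gene, 11 of 15 dendritic cell genes, 6 of 17 granule genes, 6 of 23 tested classical monocyte genes, 4 of 11 nonclassical ones and 0 of 12 tested macrophage genes were lowest there on all 4 days, where 9.67% of all genes were. Highest there on all 4 days were 0, 1, 1, 2 and 5 genes of these lists, in the same order, where 7.2% of all genes were. Ccr2, the chemokine receptor of classical monocytes, was among the genes lowest there, and Ccl9 was the classical monocyte gene highest there. Over all genes, 18.9% rose and 18.1% fell from day 7 to day 10 in WT, and 19.7% and 17.1% in KO. From day 7 to day 10, 9 of 15 dendritic cell genes rose in each genotype and 2 fell in WT and 1 in KO (edgeR, adjusted p under 0.05), with log2 medians of 1.44 and 1.19. Of 12 tested macrophage genes, 1 rose in each genotype and 7 fell in WT and 8 in KO, with medians of -0.92 and -0.95. Of the 17 granule genes, 8 rose and 2 fell in WT and 2 rose and 3 fell in KO. In WT, the library with high Ddx3y went the other way for macrophage genes, with the lowest sum of its group on days 7, 8 and 10, at 20228, 13510 and 10917 TPM, and the middle one on day 9. Its dendritic cell and granule sums were the lowest of the 3 on days 7 and 8 and the middle ones on days 9 and 10. The part of these cell type differences, or of sex, in the spread of the 9 genes was not tested.

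**Figure D4:**
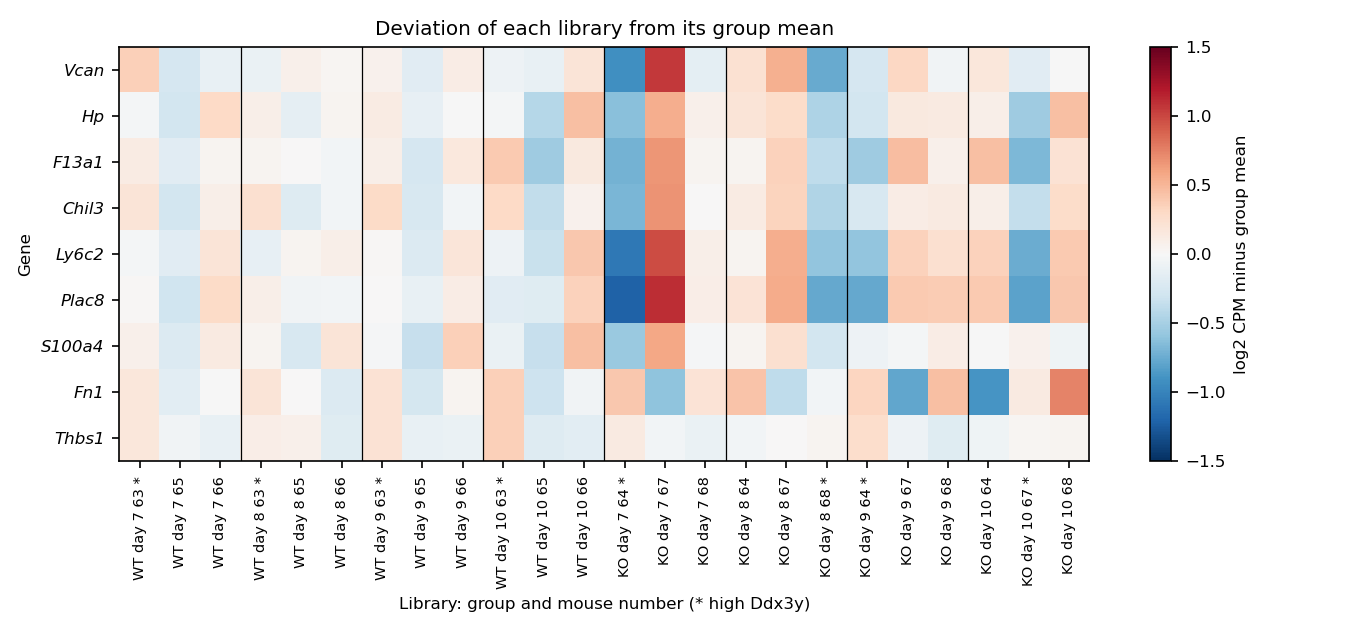
Deviation of each library from its group mean, in log2 CPM, for the 9 genes (rows) and 24 libraries (columns), with an asterisk on the library of each group with high Ddx3y. The KO columns with an asterisk are below the group mean for Vcan, Hp, F13a1, Chil3, Ly6c2 and Plac8, and Thbs1 and Fn1 lack this pattern.

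The wider set of classical monocyte genes, 24 listed of which 23 passed the filter, changed in both directions over the days. From day 7 to day 8, 10 rose and 8 fell in WT, and 8 rose and 8 fell in KO (edgeR, adjusted p under 0.05), with list medians of 0.28 and -0.16 on the log2 scale. Over all genes, 21.5% rose and 22% fell by day 8 in WT, and 21.1% and 20.9% in KO. Cd14, the lipopolysaccharide co-receptor, changed by -1.62 in WT and -1.5 in KO on the log2 scale (adjusted p = 7.77e-09 and 2.34e-08). Ccl9, a chemokine, rose 2.85-fold in WT (edgeR adjusted p = 1.11e-05). By day 10, 7 rose and 8 fell in WT and 4 rose and 10 fell in KO, where 18.9% of all genes rose and 18.1% fell in WT, and 19.7% and 17.1% in KO. Lyz2 was at 0.498 of its day 7 level in WT and 0.402 in KO (edgeR adjusted p = 0.0012 and 0.000122). Of 11 nonclassical monocyte genes, 1 rose and 6 fell in WT by day 8 and 0 rose and 5 fell in KO, with medians of -0.68 and -0.66 on the log2 scale. Fcgr4, an Fc receptor, fell from 316 ± 23.9 to 51.4 ± 9.04 TPM in WT (SD, n = 3) and from 338 ± 77.4 to 55.6 ± 20.1 TPM in KO between days 7 and 8 (edgeR adjusted p = 2.4e-07 and 2.72e-07).

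Genes for partners of the matrix proteins are read here against all genes, of which 21.5% rose and 22% fell by day 8 in WT, and 21.1% and 20.9% in KO. Of 9 tested genes for proteins that act with versican or hyaluronan, 2 rose and 1 fell by day 8 in WT, and 2 rose and 2 fell in KO, with medians of -0.05 and -0.21. Tlr2, a receptor for which versican is a known ligand, rose from 90.0 ± 17.6 to 412 ± 35.2 TPM in WT and from 176 ± 63.2 to 451 ± 19.9 TPM in KO (SD, n = 3, edgeR adjusted p = 4.72e-08 and 2.63e-05). Cd44, the hyaluronan receptor, rose 1.39-fold in WT and 1.42-fold in KO (edgeR adjusted p = 0.00136 and 0.00096). Of 13 receptors and partners of fibronectin and thrombospondin, 2 rose and 4 fell by day 8 in WT, and 3 rose and 5 fell in KO, with medians of -0.13 and -0.41. The integrin subunits Itgb5 and Itgb3 changed by -1.44 and -1.15 on the log2 scale in WT (edgeR adjusted p = 4.71e-07 and 0.00119), while Sdc4, a heparan sulfate proteoglycan, rose 3.73-fold in WT and 3.43-fold in KO (adjusted p = 7.96e-09 and 1.85e-08). On day 10, Itgb3 differed from day 7 by -1.48 in WT and -1.86 in KO on the log2 scale (edgeR adjusted p = 0.000176 and 2.33e-05).

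Further gene groups are read against the same shares of all genes on day 8. Among 10 tested transglutaminase and fibrin genes, 5 rose and 2 fell by day 8 in WT and 4 rose and 2 fell in KO, with log2 medians of 0.385 and 0.33. Tgm2, the tissue transglutaminase, went from 568 ± 19.1 to 113 ± 11.9 TPM in WT and from 449 ± 83.0 to 113 ± 13.2 TPM in KO (SD, n = 3, edgeR adjusted p = 1.35e-09 and 9.35e-09). Serpinb2, an inhibitor of plasminogen activators, rose 4.27-fold in WT and 6.49-fold in KO (edgeR adjusted p = 4.8e-08 and 2.29e-09). Of 8 genes that handle hemoglobin, heme and iron or respond with Hp, 0 rose and 5 fell by day 8 in WT and 0 rose and 4 fell in KO, with log2 medians of -0.80 and -0.56. Slc40a1, the iron exporter ferroportin, changed by -1.40 in WT and -1.48 in KO on the log2 scale, and Lrg1 by -1.53 and -1.78 (edgeR adjusted p = 1.87e-05, 1.13e-05, 5.24e-05 and 8.52e-06). Of 8 tested S100 genes other than S100a4, 2 rose and 2 fell by day 8 in each genotype, with S100a10 and S100a6 higher and S100a1 and S100a11 lower in both. Of 5 tested Ly6 genes other than Ly6c2, Ly6e rose and Ly6g fell by day 8 in WT, and Ly6g fell in KO. Of 6 chitinase-like genes other than Chil3, only Chil1 passed the filter, and it changed by -0.70 in WT (not past the threshold) and fell in KO (log2 -1.16). In these lists, and in both monocyte lists, 0 genes differed between KO and WT past the threshold on day 8, 9 or 10 by edgeR. The unadjusted p was under 0.05 for 5.91%, 8.15% and 7.3% of all genes on days 8, 9 and 10. On the same days it was under 0.05 for 0, 3 and 4 of 23 classical monocyte genes and for 1, 3 and 0 of 5 Ly6 genes, and for at most 1 gene a day of each other list named here. The Ly6 list had its largest median on day 9, at 0.82 on the log2 scale, with Ly6a at 1.44 (SE 0.478, edgeR adjusted p = 0.349) and Ly6i at 1.18 (SE 0.334, adjusted p = 0.231). Of the cell type lists, the dendritic cell genes had 4, 2 and 2 of 15 at an unadjusted p under 0.05 on days 8, 9 and 10, and the granule and macrophage lists had 0. On day 7, whose genotype contrast chose Vcan and is therefore described without a test, 17 of 23 classical monocyte genes were at a higher fitted level in KO, as were 47.1% of all genes, with a median of 0.29 on the log2 scale against -0.0136 for all genes. The other cell type lists lay to the same side that day, with 14 of 17 granule genes (median 0.555), 12 of 15 dendritic cell genes (0.395), 8 of 12 macrophage genes (0.207) and 7 of 11 nonclassical monocyte genes (0.156) at a higher fitted level in KO. With their day 7 values chosen after these were seen, Fcgr1 was at 94.8 ± 8.34 TPM in WT and 136 ± 7.44 TPM in KO on day 7, and Ms4a6c at 72.1 ± 3.51 and 145 ± 52.8 TPM (SD, n = 3). Gda was at 70.8 ± 9.23 and 105 ± 22.4 TPM and Tlr2 at 90.0 ± 17.6 and 176 ± 63.2 TPM. For these 4 genes every KO library of day 7 was above every WT library, as for 11.9% of all genes. The 4 were named for their difference in this same contrast, so that share is no yardstick for them.

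Genes whose pattern was most like that of Vcan were sought among 10993 genes with an average log2 CPM above 1, by Pearson's r of log2 CPM over the 24 libraries. The 5 nearest were Atp8b4 (r 0.965), Zbp1 (0.965), Trim30c (0.964), Slfn1 (0.963) and P2ry13 (0.962), and 0.737% of the candidates had r over 0.9. Slfn1, a schlafen gene, had day 7 means of 19.1 ± 2.91 (WT) and 38.8 ± 13.2 CPM (KO), day 8 means of 66.5 ± 3.43 and 96.3 ± 15.3 CPM, and day 10 means of 47.6 ± 7.18 and 69.3 ± 10.2 CPM (SD, n = 3). P2ry13, a receptor for ADP, had day 7 means of 23.2 ± 3.16 (WT) and 34.1 ± 7.21 CPM (KO) and day 8 means of 65.9 ± 2.83 and 75.4 ± 13.1 CPM. Like Vcan, both had their lowest mean in WT on day 7 and their highest in KO on day 8. Both were chosen for likeness to Vcan over the same 24 libraries, day 7 included, so these shared extremes follow from the choice. Nearest to the mean z-score of all 9 genes were Mcemp1 (r 0.873), Ssh2 (0.824), Rcsd1 (0.811), Plekhg3 (0.796) and Sorl1 (0.794), with 0% of candidates over 0.9.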

How the data were processed

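RNA of 24 libraries (8 groups of 3 mice) was quantified by the submitters as read counts and TPM per gene. The deposited counts are whole numbers without normalization, and the deposited TPM were used only to compare levels between genes and to sum marker lists. Per the submitters' processing notes, the tools were FastQC 0.11.9, STAR 2.6.1 and DESeq2 1.22.2 with the mm10 build; the counting tool and its strand setting are not given in the sources used here.

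Counts were fitted with edgeR 4.0.16 in R 4.3.3 (quasi-likelihood test, TMM factors, filterByExpr, 14535 of the 28655 genes with a count). All 24 libraries shared 1 fit with 8 group coefficients and 16 residual degrees of freedom. Benjamini-Hochberg adjustment ran over all tested genes, with a threshold of 0.05, and SEs are the log2 fold change divided by the square root of F. The p-values measure the spread between the libraries of a group, 3 mice each, pooled over the 8 groups. Mice repeated across days were treated as independent, so the contrasts between days do not use the pairing of animals. Vcan was not tested in contrasts with day 7 libraries, nor any of the 9 genes between genotypes on day 7. The 9 genes and all lists were chosen with earlier results of these data known. The 9 genes, Arpc4, their near copies, the cell type markers and the genes most like Vcan were named by rule, with up to 3 genes of each list per comparison that passed the threshold, had the largest absolute log2 change and had a mean TPM of at least 1. S100a11, Gm42674, Ddx3y, Cd9, Gda and Ly6i, and the day 7 genotype values of Fcgr1, Ms4a6c and Tlr2, were named after their values were seen.

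Depth was 19952047 to 31049798 counts, and replicate pairs differed by more than counting noise (chi-square per degree of freedom 7.1 to 125 in 24 pairs). Mouse numbers come from the labels, which make each number 1 animal across days; in KO, Ddx3y goes against this. Deviations of same-numbered libraries correlated at a mean r of 0.359 in WT (0.0148 to 0.608) and 0.00569 in KO (-0.785 to 0.782), over 18 pairs each and 11002 genes. Alternatives were DESeq2 1.42.0, DESeq2 size factors, other filters, only the compared groups, limma 3.58.1 on log2(TPM + 1), near copies added, each mouse left out and a replicate block. Joining KO libraries by Ddx3y, and leaving out the KO libraries with high Ddx3y, were chosen after seeing the data. Promoters were searched with Python 3.11.15 and transcripts aligned with Biopython 1.88.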

Additional observations from a re-analysis of the deposited data

How the results depend on the processing

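Over 1637 recomputed log2 fold changes of the 9 genes, 54 in 33 results had another sign than the reported value, none of them past the threshold as reported, and the largest of these reported values in absolute size was 0.905 (Plac8, day 10 against day 7 in KO). With only the compared libraries in the fit, genes called between days 7 and 8 in WT went from 4 to 7, between days 8 and 9 in WT from 0 to 5, and between days 9 and 10 in WT from 0 to 1, where the same fits called 52.1%, 14.6% and 5.33% of all genes. Without a filter on low counts, 1 gene was called between days 8 and 9 in each genotype (2.99% of all genes in WT and 2.08% in KO). Without the KO libraries with high Ddx3y, 1 gene differed between the genotypes on day 8, and 3 in WT and 1 in KO between days 8 and 9; since these libraries were the lowest KO libraries for 6 of the 9 genes, including Vcan, leaving them out raises the KO means of these genes by construction, and that fit called 1.93% of all genes on day 8 and 12.1% in WT and 7.51% in KO between days 8 and 9. Leaving out each mouse in turn gave 4 to 7 genes for day 8 against day 7 in KO, 3 to 6 for day 10 against day 7 in WT, 5 to 6 for the same days in KO, and 0 to 1 for day 9 against day 8 in WT and in KO (1 without the mouse labelled 67). The share of all genes called in these fits was 31.9% to 39%, 22% to 40.3%, 21.9% to 39.6%, 0.115% to 11.3% and 0.136% to 3.73%, in the same order, and 11.3% and 3.73% without 67. The causes of these shifts were not tested.

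With the mouse number as a replicate block, 5 genes in place of 6 were called for day 8 against day 7 in KO, where 41.6% of all genes were, with Plac8 lost (log2 -1.01, adjusted p = 0.0746), and no other call of the 9 genes changed. With the block built by joining KO libraries by Ddx3y, the calls were 4 and 3 in WT for day 9 against day 8 and day 10 against day 9, 7 in WT for day 10 against day 7, and 2 and 1 in KO for day 9 against day 8 and day 10 against day 9, where 12.4%, 8.04%, 42%, 8.97% and 1.78% of all genes were called. Depth limits S100a4 most, at 33 to 475 counts per library.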
